A study of Mus musculus with 12 samples.

Results

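Expression of 10 genes that mark blood vessel endothelium was followed in mouse epididymal fat, the visceral depot beside the testis. The genes were Cdh5, Pecam1, Cldn5, Esam, Tek, Tie1, Kdr, Flt1, Eng and Emcn. They were chosen by symbol, so that every array probe whose symbol matched was taken, which gave 12 of the 25697 probes on the array. All 12 probes passed the filter on detection, and each gene is represented by its brightest probe, which gave 10 of 11705 tested genes. RNA of male C57BL/6J mice was hybridised to an Illumina mouse bead array. Siah2KO HFD mice lacked Siah2, a ubiquitin ligase that marks proteins for breakdown, in all tissues and ate a diet with 45% fat. Siah2KO LFD mice carried the same global knockout and ate a diet with 10% fat. WT HFD and WT LFD were wild type mice on the diets with 45% and 10% fat. All were put on their diet at 4 weeks of age and killed at 20 weeks. Each group was measured as 3 RNA pools of 2 to 4 animals, from 8 animals for Siah2KO HFD and 10 for each of the other groups. A pool averages its animals, and p-values measure only the spread between pools.

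Endothelial cells line all blood and lymph vessels and are held together by junction proteins, while receptor tyrosine kinases on their surface receive growth signals from the tissue. In fat, capillaries deliver fatty acids to adipocytes, and the vessel bed has to grow when the depot expands. The 10 genes fall into 4 roles. Cdh5 encodes the cadherin of endothelial adherens junctions, Cldn5 a claudin of their tight junctions, and Pecam1 and Esam are adhesion molecules at cell contacts. Tek is the receptor of the angiopoietins, and Tie1 is its partner receptor. Kdr and Flt1 are receptors of vascular endothelial growth factors (VEGF), with Kdr carrying most of the signal. Eng is a co-receptor for ligands of the TGF-beta and BMP family, and Emcn is a sialomucin of capillary and venous endothelium. Pecam1 is also found on platelets and leukocytes, and Eng on some activated macrophages.

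Promoter sequences were available from RefSeq (build GRCm38.p6) for 7 of the 10 genes, namely Eng, Emcn, Tek, Tie1, Kdr, Flt1 and Cldn5. The 250 bases before the annotated start are shown for 3 of them. Eng had the largest diet difference in wild type, Tek is a receptor that rose on the same diet, and Emcn did not pass the test there. Capitals mark GGAA, the core of ETS factor sites, or its reverse complement TTCC. ETS factors such as Erg and Fli1 are known regulators of endothelial genes.
Eng, plus strand, chr2:32646345-32646594: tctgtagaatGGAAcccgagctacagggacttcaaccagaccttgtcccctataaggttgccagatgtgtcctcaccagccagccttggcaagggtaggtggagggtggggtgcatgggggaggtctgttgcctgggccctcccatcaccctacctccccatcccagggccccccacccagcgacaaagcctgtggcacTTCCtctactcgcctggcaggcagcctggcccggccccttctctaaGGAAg
Tek, plus strand, chr4:94739039-94739288: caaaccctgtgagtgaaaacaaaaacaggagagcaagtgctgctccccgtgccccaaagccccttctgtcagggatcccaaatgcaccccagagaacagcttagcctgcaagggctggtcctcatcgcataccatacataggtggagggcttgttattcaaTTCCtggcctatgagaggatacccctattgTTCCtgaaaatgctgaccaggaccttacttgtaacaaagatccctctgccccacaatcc
Emcn, plus strand, chr3:137340828-137341077: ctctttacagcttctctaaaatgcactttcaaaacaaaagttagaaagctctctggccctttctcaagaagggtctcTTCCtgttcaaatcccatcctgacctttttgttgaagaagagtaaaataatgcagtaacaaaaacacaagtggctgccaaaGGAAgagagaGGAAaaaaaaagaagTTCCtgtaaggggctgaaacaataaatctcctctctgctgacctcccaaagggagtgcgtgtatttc
The Eng window held 3 such sites, the Tek window 2 and the Emcn window 4. On both strands GGAA was present in 6 of the 7 windows, all but that of Cldn5, and in 93.4% of 32851 windows of the same length. The longer AGGAAG, which contains GGAA, was in 4 of the 7 and in 29.5% of all. The letters AACAAT, a SOX motif, were in the windows of Tek and Emcn and in 9.42% of all. The letters AGATAA, bound by GATA factors, were in none of the 7 and in 9.99% of all. The GC box, with the letters GGGCGG, was in 3 of the 7 (Kdr, Flt1 and Cldn5) and in 32.7% of all. The letters TATAAA were in the window of Flt1 and in 12.4% of all. These matches describe the letters in the windows only.

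Some pools stood apart from their labels. The Siah2 probe read 45.0 to 68.2 in Siah2KO HFD pools and 62.2 to 102 in Siah2KO LFD pools, against 78.7 to 111 in WT HFD pools and 91.6 to 121 in WT LFD pools. The pool labelled Siah2KO LFD 1 held the value of 102 and lay within the wild type range. No source used here says whether the probe lies inside the deleted sequence. Siah2KO HFD pool 2 correlated best with a Siah2KO LFD pool (r = 0.977 across genes, against 0.946 and 0.951 with its own group), and Siah2KO LFD pool 2 with a Siah2KO HFD pool (0.976, against 0.943 and 0.963). Siah2KO HFD pool 3 and WT HFD pool 1 correlated best with each other, across genotypes (0.988, against 0.946 and 0.981 of the knockout pool with its own group and 0.983 and 0.985 of the wild type pool with its own). Correlations across genes are descriptions, since genes are not independent replicates. Endothelial gene results that rest on the pool labelled Siah2KO LFD 1 or on the Siah2KO pools numbered 2 are given with and without them. The exception is their knockout effect averaged over both diets. That effect and the counts of the other vessel and cell lists are given with all pools only.

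Cdh5, Pecam1, Cldn5, Esam, Tek, Tie1, Flt1, Eng and Emcn were bright enough to be detected on all 12 arrays, and Kdr was detected on 11. Values are the authors' normalized intensities, a linear brightness, and levels are compared only within a probe. The probes were ILMN_2866951 (Cdh5), ILMN_2700982 (Pecam1), ILMN_1241293 (Cldn5), ILMN_2690839 (Esam), ILMN_1220170 (Tek), ILMN_2928560 (Tie1), ILMN_2665788 (Kdr), ILMN_1227926 (Flt1), ILMN_1229161 (Eng) and ILMN_1259365 (Emcn). In all 10 genes the WT LFD group had the lowest mean of the 4 groups. Eng averaged 679 ± 80.9 in Siah2KO HFD, 667 ± 198 in Siah2KO LFD, 914 ± 200 in WT HFD and 403 ± 74.4 in WT LFD pools (SD, n = 3 each). Cdh5 averaged 961 ± 191 in Siah2KO HFD, 804 ± 219 in Siah2KO LFD, 1194 ± 179 in WT HFD and 603 ± 95.3 in WT LFD pools. Cdh5, Cldn5, Esam, Tie1 and Eng shared the order WT HFD, Siah2KO HFD, Siah2KO LFD, WT LFD from highest to lowest mean. The Siah2KO HFD mean was the highest for Pecam1, Tek and Emcn, and for Flt1 and Kdr the order was WT HFD, Siah2KO LFD, Siah2KO HFD, WT LFD. No neighbours in these orders that were compared passed the test, as given below by contrast. Kdr lay near the background, with 4 of 12 pools below an approximate floor of 27.9, and ran from 9.68 to 78.1. The ratio of the highest to the lowest pool was 3.40 for Eng, 2.55 for Cdh5 and 1.61 for Esam.

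**Figure D1:**
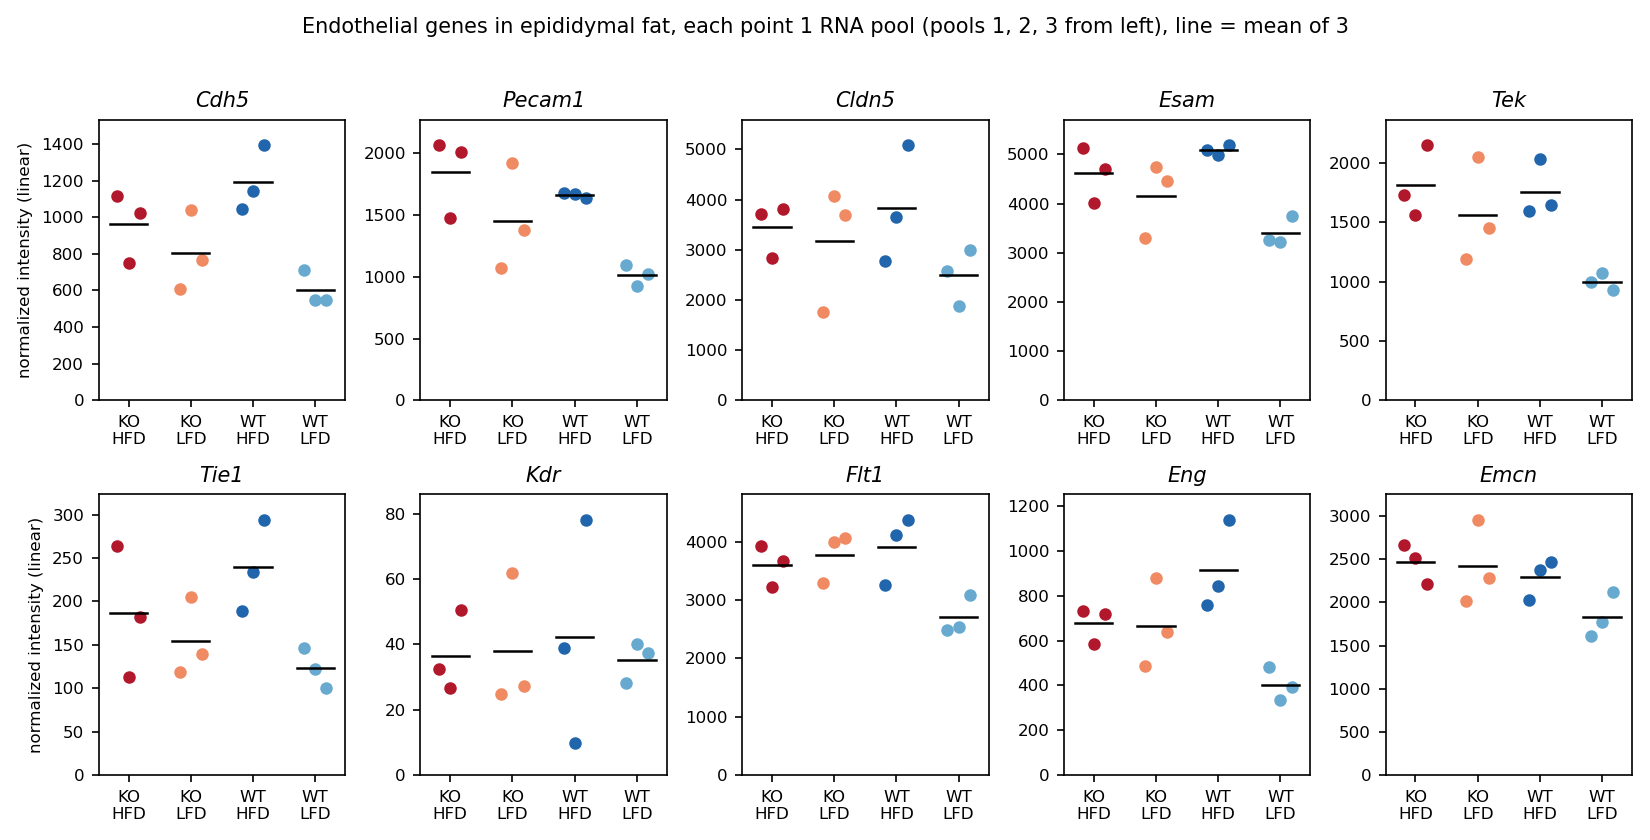
Normalized intensity (linear, arbitrary units) of the 10 endothelial genes in each RNA pool of the Siah2KO HFD, Siah2KO LFD, WT HFD and WT LFD groups, with the group mean as a line. The 3 WT LFD pools lie below the 3 WT HFD pools for 7 genes, and the highest Kdr value is 78.1.

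The diet effect in wild type asks how the depot on 45% fat differed from that on 10% fat when Siah2 was intact. Of the 10 genes 7 rose, none fell and 3 did not pass (limma, adjusted p under 0.05 over 11705 genes), while 39.5% of all tested genes passed, 22.8% upward and 16.8% downward. The median log2 change of the 10 was 0.64, against 0.06 over all genes. Genes of the epididymis and seminal vesicle, which adjoin the depot, fell in the same comparison. With the mean of either list as a covariate none of the 10 passed. With the epididymis covariate the median was 0.03 (median SE 0.38), and 19 of all 11705 genes passed. With the seminal vesicle covariate the median was still 0.62, but the median SE was 0.997, against 0.20 without a covariate. A bulk sample cannot tell apart more endothelial cells from more RNA per cell. In the following, pools are given in the order 1, 2, 3, and log2 changes are of intensity plus 50.

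Among the junction genes, Cdh5 measured 1046, 1142 and 1393 in WT HFD pools, against 713, 549.5 and 547 in WT LFD pools. It rose by 0.93 (SE 0.21, adjusted p = 0.00546, limma), and no pools overlapped. Pecam1 measured 1682, 1667 and 1635 in WT HFD pools, against 1096, 923 and 1020 in WT LFD pools. Its rise of 0.69 (SE 0.19, adjusted p = 0.0162) also came without overlap, and the WT HFD pools were nearly alike. Esam, found at tight junctions of endothelium and on platelets, measured 5086, 4989 and 5189 in WT HFD pools, against 3263, 3224.5 and 3744 in WT LFD pools. All WT HFD pools were higher, and the log2 change was 0.57 (SE 0.14, adjusted p = 0.0103). Cldn5 spread widely, from 2768 to 5086 in WT HFD pools and from 1882 to 3005.5 in WT LFD pools, so that the groups overlapped. Its log2 change of 0.60 had an SE of 0.32 and did not pass (adjusted p = 0.163).

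Both receptors of the angiopoietin axis rose. Tek measured 1595, 2032 and 1647 in WT HFD pools, against 993, 1072 and 933 in WT LFD pools, a log2 change of 0.78 (SE 0.19, adjusted p = 0.0086, limma). Tie1 measured 189, 234 and 294 in WT HFD pools, against 146, 123 and 99.8 in WT LFD pools, a log2 change of 0.74 (SE 0.24, adjusted p = 0.0325). Neither gene's groups overlapped. The VEGF receptors differed in what could be measured. Flt1, which binds VEGF tightly and is known as a decoy, measured 3261, 4111 and 4376 in WT HFD pools, against 2492, 2531 and 3086.5 in WT LFD pools, and rose by 0.52 (SE 0.15, adjusted p = 0.0166). Kdr gave 38.9, 9.68 and 78.1 in WT HFD pools, against 28.2, 40.2 and 37.3 in WT LFD pools, so that the WT HFD pools alone span the whole range and the log2 change of 0.05 (95% interval -0.51 to 0.60) carries little information.

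Eng had the largest change of the 10, a log2 difference of 1.08 (SE 0.21, adjusted p = 0.0031, limma). It measured 759, 842 and 1140.1 in WT HFD pools, against 483, 335 and 392 in WT LFD pools, and the lowest WT HFD pool was above the highest WT LFD pool. Emcn measured 2027, 2378 and 2466.5 in WT HFD pools, against 1615.5, 1767 and 2123 in WT LFD pools. Its log2 change of 0.32 (SE 0.16) did not pass (adjusted p = 0.135), and WT HFD pool 1 lay below WT LFD pool 3. Groups did not overlap for 7 of the 10 genes, all higher in WT HFD, and for 29.2% of all genes in that direction and 22.3% in the other. Leaving out WT LFD pool 2 brought the number called to 4, which were Cdh5, Esam, Tek and Eng.

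**Figure D2:**
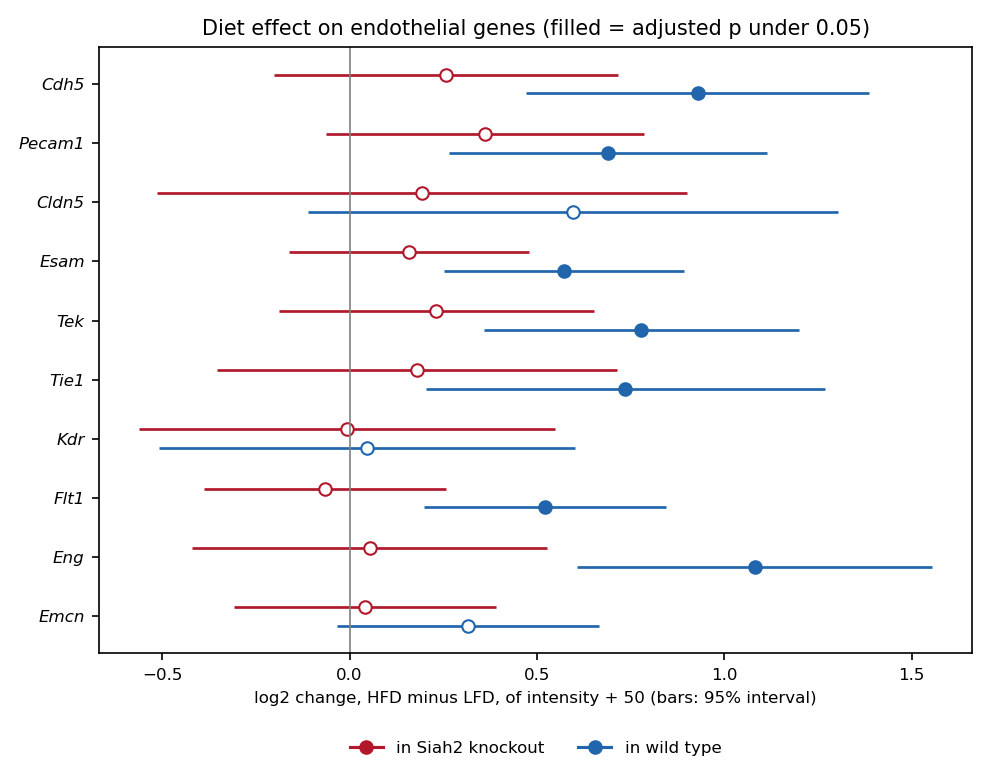
Log2 change with 95% interval (x axis, HFD minus LFD, of intensity plus 50) for each endothelial gene, in Siah2 knockout above wild type, with filled points for adjusted p under 0.05. In wild type 7 points are filled and in knockout none, and the intervals of the 2 genotypes overlap for all genes except Eng.

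In Siah2 knockout mice none of the 10 genes passed the test for the same diet comparison (limma), while 4.37% of all genes passed, 3.55% upward and 0.82% downward. No gene of the 10 had groups that did not overlap, against 12.2% of all genes with HFD higher and 9.82% with HFD lower. The median log2 change of the 10 was 0.17, against -0.01 over all genes, and 8 of the 10 differences were above 0. Eng measured 732, 586 and 719 in Siah2KO HFD pools, against 486, 879 and 637 in Siah2KO LFD pools. The highest and the lowest of these 6 values were both in the low fat group, and the log2 change was 0.05 (95% interval -0.42 to 0.53). Cdh5 measured 1115, 748 and 1021 in Siah2KO HFD pools, against 607, 1040 and 764 in Siah2KO LFD pools. The groups overlapped, with Siah2KO HFD pool 1 alone above the highest low fat pool, and the change was 0.26 (-0.20 to 0.72). Pecam1 measured 2066.5, 1477 and 2012.5 in Siah2KO HFD pools, against 1069, 1920 and 1379 in Siah2KO LFD pools, and had the largest change of the 10, 0.36 (-0.06 to 0.79). Pecam1 pools overlapped through Siah2KO HFD pool 2 and Siah2KO LFD pool 2. For Tek the values were 1731, 1564 and 2149 in Siah2KO HFD pools, against 1190, 2052 and 1447 in Siah2KO LFD pools. Tie1, Tek's partner, measured 264, 113 and 182 in Siah2KO HFD pools, against 119, 205.5 and 139 in Siah2KO LFD pools. Their changes were 0.23 for Tek (-0.19 to 0.65) and 0.18 for Tie1 (-0.35 to 0.71), and in neither did the pools separate by diet. Flt1 measured 3929, 3218 and 3670.5 in Siah2KO HFD pools, against 3288, 3987.5 and 4064 in Siah2KO LFD pools, with a change of -0.07 and the 2 highest values on low fat diet. Esam, Cldn5 and Emcn had changes of 0.16, 0.19 and 0.04, and Kdr of -0.01. The intervals of all 10 include 0, and their upper ends lie between 0.26 and 0.90, the lowest for Flt1 and the highest for Cldn5.

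Without Siah2KO HFD pool 2 and Siah2KO LFD pool 2, Pecam1 passed for the diet effect in knockout, with a log2 change of 0.72 (SE 0.15, adjusted p = 0.0114, limma). The median of the 10 genes was then 0.45 and all 10 differences were above 0, while Tek (0.54, adjusted p = 0.0718) and Cdh5 (0.61, adjusted p = 0.0622) did not pass. Without the pool labelled Siah2KO LFD 1, none passed and the median was -0.04. Over these choices of pools the median of the 10 genes thus ran from -0.04 to 0.45, around the 0.17 of all pools.

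The difference between the diet effects, knockout minus wild type, was tested for each gene itself. All 10 differences were below 0, with a median of -0.48 against -0.08 over all genes, and none passed (limma), while 0.103% of all genes did, 0.0598% with a positive and 0.0427% with a negative difference. The smallest p-values of the 10 were those of Eng (-1.03, SE 0.30, adjusted p = 0.144), Flt1 (-0.59, SE 0.21, adjusted p = 0.17) and Cdh5 (-0.67, SE 0.29, adjusted p = 0.233). The 95% interval was -1.70 to -0.36 for Eng and -1.04 to -0.13 for Flt1, before adjustment. A difference in diet effect was therefore not called for any of the 10 genes. Without Siah2KO HFD pool 2 and Siah2KO LFD pool 2 the median was -0.18 with 2 of the 10 above 0, and without the pool labelled Siah2KO LFD 1 it was -0.68 with none above 0, and none passed either way. With the epididymis covariate the median was -0.11 with 4 above 0. It was -0.35 with 2 above 0 with the seminal vesicle covariate (median SE 0.67), and -0.46 with none above 0 with the muscle covariate. Relative to the adipocyte list, 5 of the 10 differences were above 0, with a median of -0.02 against 0.38 over all genes on that scale.

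The knockout effect on 10% fat compares Siah2KO LFD with WT LFD. None of the 10 genes passed (limma), while 7.9% of all genes did, 4.72% upward and 3.18% downward. All 10 differences were above 0, with a median of 0.37 against 0.04 over all genes. That direction held after cyclic loess but turned relative to the adipocyte list, where 2 of the 10 were above 0 and the median was -0.20, against -0.53 over all genes. Tract genes were lower in the same comparison, all 8 of the seminal vesicle (median -5.44) and 6 of 16 of the epididymis (median -2.65). Seminal vesicle sums ran from 5124 to 6720 in Siah2KO LFD pools, against 58972 to 230270 in WT LFD pools. With the epididymis covariate the median of the 10 endothelial genes was 0.05, with 6 above 0. With the seminal vesicle covariate it was 0.40, with 7 above 0 and a median SE of 0.65. The muscle covariate gave 0.36, with all 10 above 0. Eng measured 486, 879 and 637 in Siah2KO LFD pools, against 483, 335 and 392 in WT LFD pools, a log2 change of 0.64 (SE 0.21, adjusted p = 0.0874). Tek measured 1190, 2052 and 1447 in Siah2KO LFD pools, against 993, 1072 and 933 in WT LFD pools, a log2 difference of 0.59 (SE 0.19, adjusted p = 0.0791). Flt1 measured 3288, 3987.5 and 4064 in Siah2KO LFD pools, against 2492, 2531 and 3086.5 in WT LFD pools, a difference of 0.48 (SE 0.15, adjusted p = 0.0686). These were the only genes of the 10 whose groups did not overlap, and 19.1% of all genes separated in that direction and 13.9% in the other. For Eng the gap was narrow, since the pool labelled Siah2KO LFD 1 lay just above WT LFD pool 1. Pecam1 and Emcn differed by 0.47 and 0.38 and overlapped with WT LFD, as did Cdh5 (0.36), Cldn5 (0.28), Esam (0.27), Tie1 (0.23) and Kdr (0.02). Without the pool labelled Siah2KO LFD 1, which had the lowest value of its group for all 10 genes, 4 of the 10 passed. They were Eng (0.83, adjusted p = 0.0341), Tek (0.76, 0.0307), Pecam1 (0.66, 0.0384) and Flt1 (0.57, 0.0412). The share of all genes that passed without that pool is not given here, so this count cannot be set beside it. Without Siah2KO LFD pool 2, the highest of its group for 9 genes, none passed, 9 of the 10 differences were above 0 and the median was 0.20 (smallest adjusted p = 0.199).

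On 45% fat, Siah2KO HFD was compared with WT HFD. None of the 10 genes passed (limma), and 0.0854% of all genes did, all of them lower in knockout. The median was -0.12, against -0.02 over all genes, and 3 of the 10 differences were above 0. Eng measured 732, 586 and 719 in Siah2KO HFD pools, against 759, 842 and 1140.1 in WT HFD pools. All 3 knockout pools were lower, as for 11.8% of all genes, with 6.36% all higher, and the log2 difference was -0.39 (95% interval -0.86 to 0.09, adjusted p = 0.5). Tie1 and Cdh5 differed by -0.33 and -0.31, and the remaining genes lay between -0.15 for Esam and 0.14 for Pecam1. Without Siah2KO HFD pool 2 none passed, and the median was -0.01 with 5 differences above 0. Averaged over both diets, none of the 10 passed and 2.78% of all genes did, 1.7% upward and 1.08% downward. The averaged differences were largest for Tek (0.31, SE 0.13, adjusted p = 0.204) and Pecam1 (0.30, SE 0.14, adjusted p = 0.223).

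**Figure D3:**
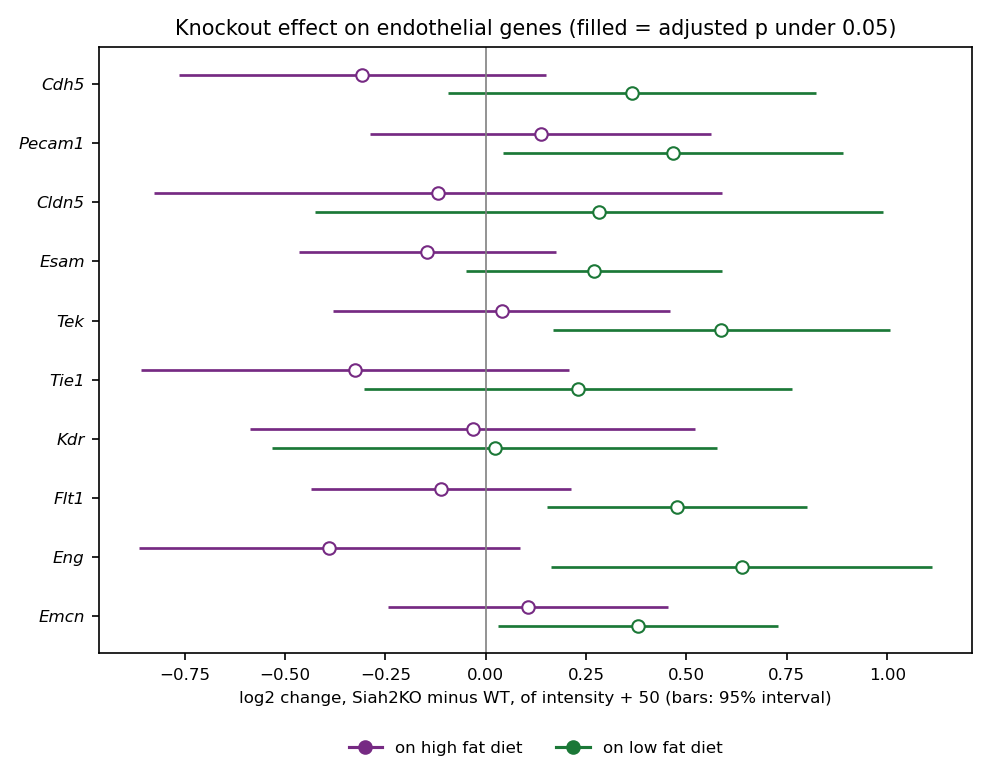
Log2 change with 95% interval (x axis, Siah2KO minus WT, of intensity plus 50) for each endothelial gene, on high fat diet above low fat diet. No point is filled, so no gene passed adjusted p under 0.05, and all 10 low fat values lie above 0.

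The genes varied together between the pools of a group. WT HFD pool 3 had the highest value of all 12 pools for 7 of the 10 genes. The pool labelled Siah2KO LFD 1 was the lowest of its group for all 10, Siah2KO LFD pool 2 the highest for 9, and Siah2KO HFD pool 2 the lowest for 9. The mean log2 value of the 10 genes was 10.39, 10.03 and 10.34 in Siah2KO HFD pools, 9.77, 10.45 and 10.12 in Siah2KO LFD pools, 10.21, 10.33 and 10.57 in WT HFD pools and 9.78, 9.66 and 9.79 in WT LFD pools. The Siah2KO LFD pools thus spread from within the range of the WT LFD pools to above all Siah2KO HFD pools, while the WT LFD pools lay close together. The mean log2 of 12 adipocyte genes was 12.91, 12.50 and 12.79 in Siah2KO HFD pools and 12.63, 13.02 and 12.90 in Siah2KO LFD pools. It was 12.46, 12.64 and 12.77 in WT HFD pools and 12.42, 12.16 and 12.27 in WT LFD pools. Adipocyte and endothelial means put the pools in the same order in all groups but WT LFD, where pool 2 was lowest by both.

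Markers of other tissues also differed between pools. The mean log2 of 16 epididymis genes was 5.97, 10.18 and 5.86 in Siah2KO HFD pools, 10.68, 8.78 and 11.25 in Siah2KO LFD pools, 6.86, 6.80 and 6.44 in WT HFD pools and 13.79, 13.66 and 12.46 in WT LFD pools. Siah2KO HFD pool 2, lowest of its group for 9 endothelial genes, had the highest epididymis mean of its group. Siah2KO LFD pool 2, highest for 9, had the lowest of its group. The pool labelled Siah2KO LFD 1, lowest for all 10, did not have the highest epididymis mean of its group, which was in pool 3. Summed intensity over those 16 genes ran from 192 to 122660 in Siah2KO HFD, from 18193 to 147930 in Siah2KO LFD, from 930 to 3112 in WT HFD and from 192510 to 310850 in WT LFD pools. All 16 fell on high fat diet in wild type. The 8 seminal vesicle genes also all fell there, with sums of 38.8 to 104 in WT HFD and 58972 to 230270 in WT LFD pools. Their mean log2 was 5.72, 5.65 and 5.76 in Siah2KO HFD pools and 8.66, 9.03 and 8.67 in Siah2KO LFD pools. By this list pool 2 was the highest of its group in Siah2KO LFD, opposite to the epididymis list. In Siah2KO HFD pools the 8 genes summed to 49.8 to 82.5, which is near the background, so their order of pools there carries little information. The 10 skeletal muscle genes had their highest sum, 12615, in Siah2KO LFD, and a mean log2 of 9.75 in the pool labelled Siah2KO LFD 1 against 6.95 and 7.05 in the other Siah2KO LFD pools. With the epididymis mean as a covariate none of the 10 endothelial genes passed for diet in wild type, and the changes lay between -0.65 for Kdr and 0.41 for Eng, with a median SE of 0.38 against 0.20 without the covariate. Tract RNA and diet separated the wild type pools completely, so their parts in the wild type result cannot be told apart.

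**Figure D4:**
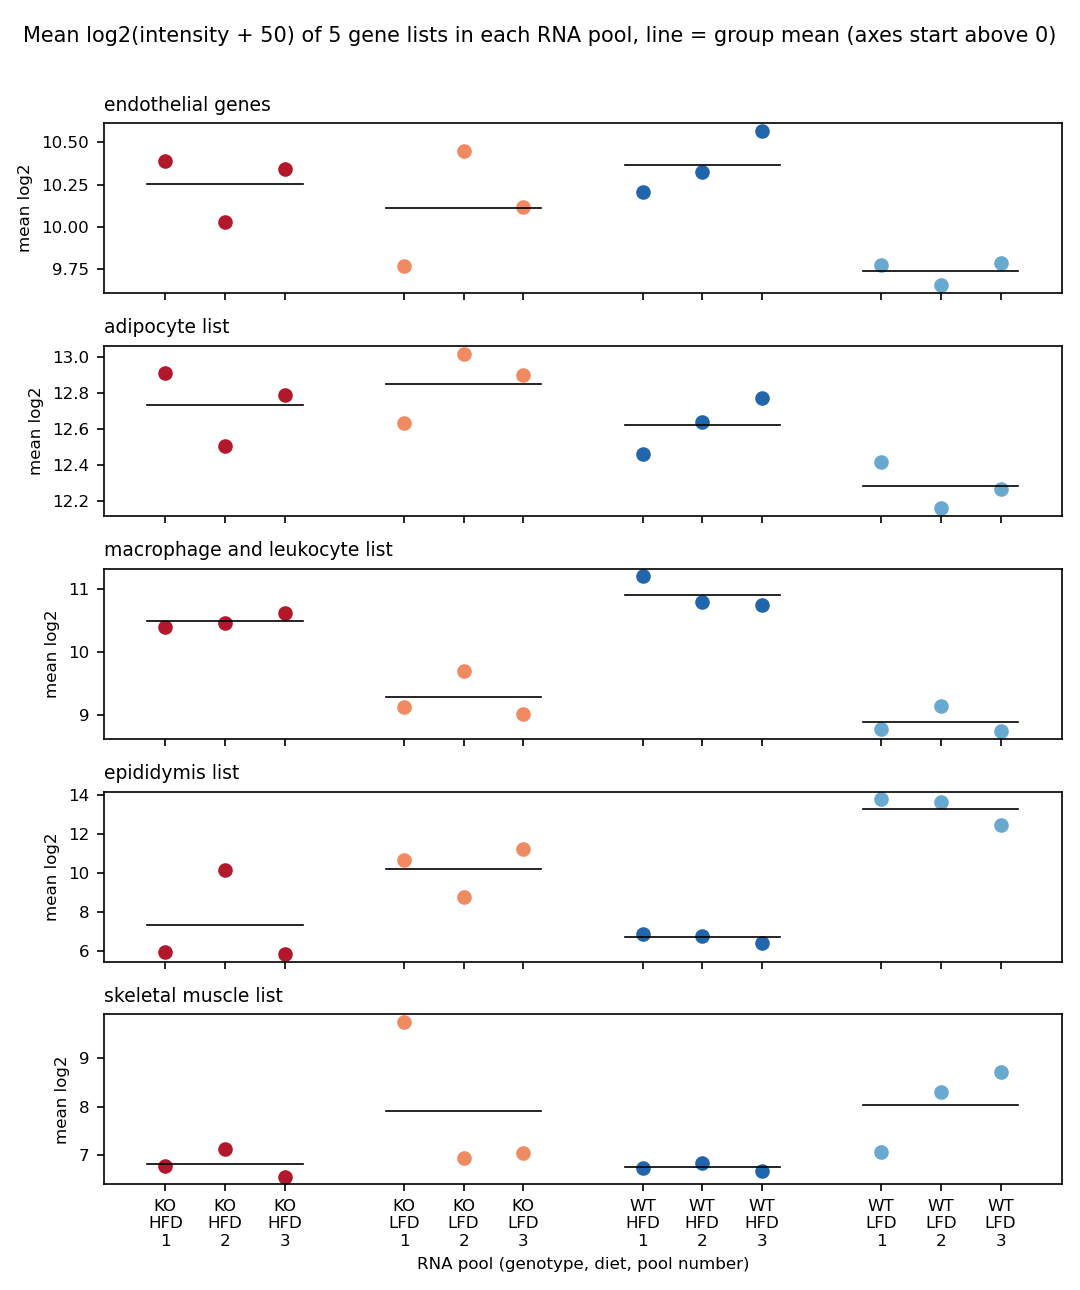
Mean log2(intensity + 50) of the endothelial genes and of 4 marker lists (y axes) in each RNA pool (x axis), with the group mean as a line. Siah2KO HFD pool 2 and the pool labelled Siah2KO LFD 1 are low for endothelial genes, and the first is high for the epididymis list (10.18) and the second for the muscle list (9.75).

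Marker genes of other cell types were also counted. With diet in wild type 22.8% of all genes rose and 16.8% fell, and in knockout 3.55% and 0.82%. For the knockout effect on low fat diet these shares were 4.72% and 3.18%. All 12 macrophage and leukocyte genes tested rose on high fat diet in wild type, with a median of 1.75, and 8 of 12 rose in knockout, with a median of 0.92. Their summed intensity ran from 37508 to 44673 in Siah2KO HFD, 15670 to 24323 in Siah2KO LFD, 50201 to 64094 in WT HFD and 12090 to 17470 in WT LFD pools. These genes followed the diet label in every pool, including those that stood apart. Of 12 adipocyte genes 2 rose and 1 fell with diet in wild type, none passed in knockout, and 6 rose in knockout on low fat diet. Relative to the mean of the adipocyte genes, Eng (0.74, adjusted p = 0.00342) and Cdh5 (0.59, adjusted p = 0.00642) still passed for diet in wild type, while the median of all genes on that scale was -0.28. Of 12 mural cell genes 4 rose and 2 fell in wild type, and of 6 platelet genes 3 rose and 1 fell. Platelet sums ran from 4239 to 5008 in Siah2KO HFD, 3193 to 3852 in Siah2KO LFD, 3100 to 4754 in WT HFD and 1991 to 2937 in WT LFD pools. Over all 12 pools a single macrophage and 1 platelet gene averaged below the floor, and no epididymis, muscle or adipocyte gene did. Within a group values can be lower, since the 16 epididymis genes summed to 192 in the lowest Siah2KO HFD pool. Of 10 fibroblast genes 8 rose and none fell, and all 7 epithelial genes fell. Of 7 mesothelium genes 4 fell and of 10 muscle genes 4 fell, with none higher, and none of 5 red blood cell genes passed. The part of these cells in the endothelial result was not tested beyond the adjustments given.

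**Figure D5:**
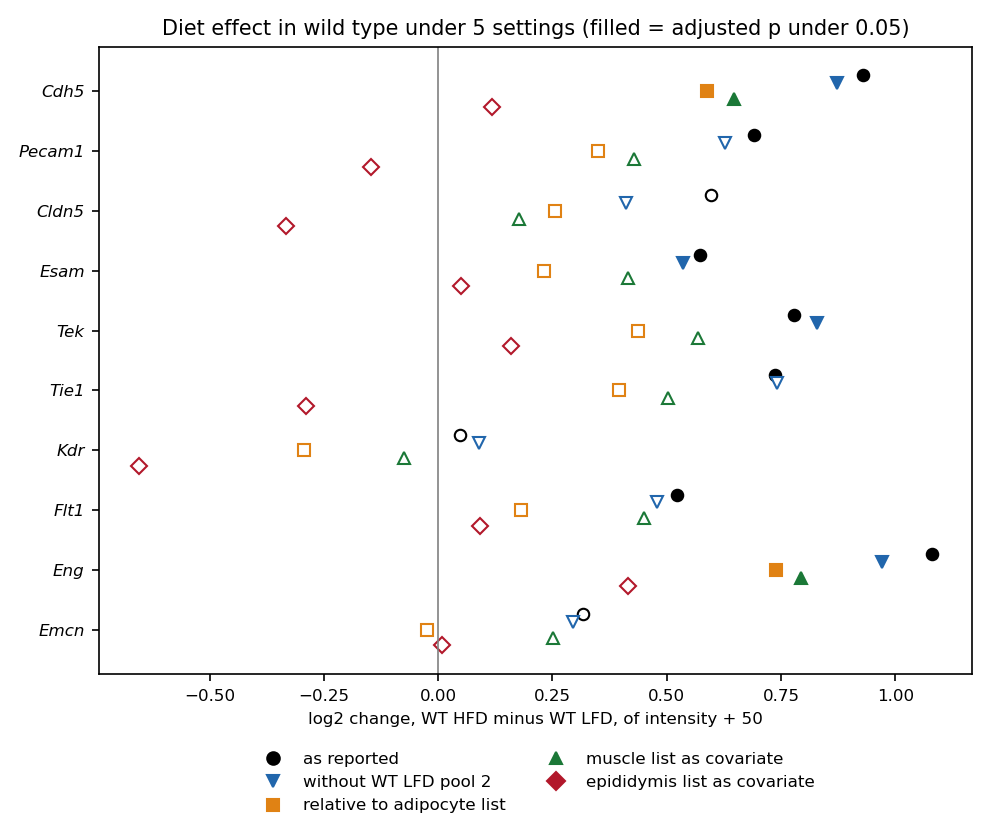
Log2 change of each endothelial gene for diet in wild type (x axis, WT HFD minus WT LFD, of intensity plus 50) under 5 settings, with filled marks for adjusted p under 0.05. Eng (0.74) and Cdh5 (0.59) are filled on the adipocyte scale, and no mark is filled with the epididymis covariate.

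The genes whose pattern over the 12 pools was most like the mean of the 10 standardized endothelial genes were Nos3 (r = 0.987), Cdc42ep2 (0.984), Adcy4 (0.982), Atp2a3 (0.980), Mgll (0.977) and Msrb2 (0.977). Nos3 encodes the nitric oxide synthase of endothelium, and Mgll a lipase that cleaves monoacylglycerols. The pools share diet, genotype and tissue content, so these values describe likeness only. All 6 rose with diet in wild type, from 0.48 for Msrb2 to 0.94 for Atp2a3, and none passed in knockout, where values lay between 0.14 and 0.40. Of all genes 22.8% rose in wild type and 4.37% passed in knockout. The 6 were picked by likeness over these same pools, so their counts follow from the choice and are no separate result.

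The 11 other vessel lists held 126 tested genes, of which 65 rose and 7 fell with diet in wild type and 8 rose and none fell in knockout. For none of the 126 was the difference of these 2 diet effects called (limma). The counts below stand beside 22.8% of all genes that rose and 16.8% that fell with diet in wild type, and 3.55% and 0.82% in knockout. Of 6 tested VEGF ligands and co-receptors 3 rose and 1 fell with diet in wild type, with a median of 0.55. Vegfc, a ligand of lymphatic vessels, rose by 0.94 and Nrp1, a co-receptor of Kdr, by 0.91. Pgf, which binds Flt1, was at least 3.84-fold lower in WT HFD pools, which were all below the floor (adjusted p = 0.00118, limma). Nrp1 measured 6285, 5705 and 6473.5 in WT HFD pools, against 3069.5, 3268 and 3387 in WT LFD pools. In knockout 1 of the 6 passed, Vegfd, with a rise of 0.44, and in wild type Vegfd rose by 0.83. Of 7 tested angiopoietin and TIE regulators, a list that includes angiopoietin-like (Angptl) genes, 5 rose and none fell in wild type. Svep1, a matrix protein reported to bind Tie1 in zebrafish, rose by 1.77, Angptl1 by 1.69 and Angptl4, an inhibitor of lipoprotein lipase, by 1.38. Svep1 (1.29, adjusted p = 0.0125) and Angptl1 (1.03, adjusted p = 0.0244) also rose in knockout. Svep1 measured 1371, 1309 and 1454 in Siah2KO HFD pools, against 366, 827 and 491 in Siah2KO LFD pools, with no overlap.

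Genes that work beside Eng, at junctions and in transcription were counted in the same way. Of 11 genes of the endoglin pathway 4 rose and none fell in wild type, among them the ligand Tgfb1 (1.12), the receptor Acvrl1, which pairs with Eng (0.88), and Tgfbr2 (0.85). None of the 11 passed in knockout, where Tgfb1 had a change of 0.48 (adjusted p = 0.185). Of 11 junction partners 2 rose, Jup, the junction protein plakoglobin (0.79), and Jam2 (0.63), and 2 fell. Ocln, a tight junction protein of epithelia and endothelia, was at least 2.59-fold lower in WT HFD pools, all of them below the floor. Of 15 transcription factors known from endothelium 11 rose and 1 fell, with a median of 0.73. Lyl1, a factor of blood and vessel cells, rose by 1.19 and Sox18 by 1.11, while Gata2 fell by 2.27. Gata2 measured 611, 658 and 759 in WT HFD pools, against 3084.5, 5324 and 2463 in WT LFD pools. None of the 15 passed for diet in knockout.

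Of 16 genes of Notch signalling and artery or vein identity 6 rose and 1 fell in wild type and 2 rose in knockout. Cxcr4, a chemokine receptor of tip cells and leukocytes, rose by 1.99 in wild type and 1.04 in knockout, and Aplnr, the apelin receptor, by 1.26 and 1.11. Gja5, a connexin of arteries, rose by 1.19 in wild type. Of 27 other vessel genes 15 rose and none fell in wild type, led by Cd93 (1.35), the adaptor She and Plvap, which forms the diaphragms of capillary pores (0.90). None of the 27 passed for diet in knockout, where Cd93 had the largest change (0.60, adjusted p = 0.0748, limma). All 5 tested leukocyte adhesion molecules rose in wild type, among them Selp, the P-selectin (1.35), Vcam1 (1.24) and Ackr1, a chemokine receptor of venules (1.22). In knockout none of the 5 passed, and Vcam1 had a change of 0.65 (adjusted p = 0.121).

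Of 14 lipid handling genes 5 rose and none fell in wild type. Fabp5, a fatty acid binding protein of capillaries and macrophages, rose by 2.11, the glycerol channel Aqp7 by 1.15 and Tcf15 by 0.78, and none of the 14 passed in knockout. Of 5 tested lymphatic genes 1 rose, Lyve1, which macrophages also make (1.22), and 2 fell, Reln by 1.63 and Ackr4 by 1.07. Of 9 basement membrane genes 8 rose in wild type, led by Sparc (1.44), Col4a2 (1.28) and Col4a1 (1.23). The same 3 rose in knockout, Col4a2 by 0.82, Sparc by 0.70 and Col4a1 by 0.64. With the epididymis covariate 1 gene of these 11 lists passed for diet in wild type, in the Notch and identity list.

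In Siah2KO LFD against WT LFD pools, 23 vessel genes outside the 10 rose and 2 fell over the 11 lists, the 2 being Pgf and Gata2, beside 4.72% of all genes that rose and 3.18% that fell. The largest rises in their lists were Fabp5 (1.34), Jag1, a Notch ligand (1.27), Lamb1 (1.25), Jam2 (1.06), Bmp6 (1.03) and Selp (0.98). Erg, the ETS factor named above, passed with a fitted change of 0.81 but was at least 1.46-fold higher only, since its WT LFD pools were below the floor. Gata2 fell by 1.25, and Nrp1 (0.58), Vegfd (0.41) and Ptprb, a phosphatase that acts on Tek (0.47), rose. No gene of the 11 lists passed in this low fat comparison with the epididymis covariate, and 4 genes passed over the whole array. Seminal vesicle sums also differed, with 5124 to 6720 in Siah2KO LFD pools against 58972 to 230270 in WT LFD pools. The part of tract RNA in these vessel gene differences was not tested further. On high fat diet no gene of the 11 lists passed for the knockout effect. The largest values there were 0.91 for Reln (adjusted p = 0.387) and 0.61 for Fabp4 (adjusted p = 0.712).

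Second probes were on the array for Pecam1 and Flt1. The second Pecam1 probe measured 644, 1007 and 1129 in WT HFD pools, against 621, 606 and 713 in WT LFD pools. Its log2 change of 0.46 (SE 0.26) did not pass (adjusted p = 0.185, limma), unlike that of the brighter probe, and WT HFD pool 1 overlapped with WT LFD. The second Flt1 probe was detected on 4 of 12 arrays and was below the floor in 10 of 12 pools. It measured 12.1, 32.2 and 46.1 in WT HFD pools, against 4.22, 4.45 and 9.91 in WT LFD pools, and gives no usable level.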

How the data were processed

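RNA of epididymal fat from 12 pools was measured on an Illumina bead array. The authors deposited normalized intensities, 1 per probe and sample, made with GenomeStudio per the submitters' processing notes, with version and settings not stated. They are linear, 22.9% are below 0, the lowest is -27.5 and column medians lie between 33.3 and 33.6, so a background had been subtracted and the arrays brought to a common scale. The authors also deposited raw intensities and detection p-values under array codes that no label ties to a sample. Gene names were joined to probes by the 12 raw signals of a row, equal within 0.05 in both tables. These columns served for gene names, detection and brightness only, and 20 of 32 signal columns belonged to no sample of the series.

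An offset of 50 was added before log2, which compresses fold changes of dim genes. Probes with detection p under 0.05 on at least 3 arrays were kept (15765 of 25697), and the brightest kept probe stood for its gene. Symbols were updated through RefSeq for 4194 probes. Each array detected 13389 to 15037 probes, and raw medians ran from 120.4 to 212.4. An intensity of 27.9 served as floor, the level passed by 52.1% of values, the lowest share of probes detected on any array. Where all pools of a group were below it, a change is given as "at least" a fold, with values under the floor set to it.

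Group means of the 4 groups were estimated in a single limma 3.58.1 fit (R 4.3.3, lmFit and eBayes, 8 residual degrees of freedom) over the 12 arrays, which gave 6 contrasts. P-values are two-sided and adjusted by Benjamini and Hochberg over 11705 genes. The step was tested on simulated data. The number of arrays limits the precision. The 10 genes, 11 vessel lists and 11 cell lists were chosen with earlier results of these data known. From each vessel list up to 3 called genes with the largest change per simple contrast were named, or up to 2 uncalled ones as values, and the 6 genes most like the endothelial mean by Pearson r. Alternatives were 27 planned settings and 2 added after seeing the data. Promoters came from RefSeq tables of build GRCm38.p6. Gene coordinates on the build used for the array design are not given in the sources used here.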

Additional observations from a re-analysis of the deposited data

Results flagged for a closer look

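Eng was lower in every Siah2KO HFD pool than in every WT HFD pool and higher in every Siah2KO LFD pool than in every WT LFD pool. The difference between its diet effects, knockout minus wild type, was -1.03 on the log2 scale (limma, adjusted p = 0.144), so the opposite directions did not pass the test.

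Ackr1 and Cxcr4 showed the same opposite order of pools. The differences between diet effects were -0.79 for Ackr1 (limma, adjusted p = 0.136) and -0.95 for Cxcr4 (adjusted p = 0.0892), and neither passed. Cxcr4 measured 326, 326 and 384 in Siah2KO HFD, 149, 143 and 135 in Siah2KO LFD, 395, 426 and 417 in WT HFD and 86.4, 74.0 and 43.8 in WT LFD pools.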

How the results depend on the processing

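Of 7 endothelial genes called for diet in wild type, none was called with the mean of the epididymis, seminal vesicle or epithelium list as a covariate (0 each), and 2 with the muscle list or relative to the adipocyte list. Leaving out each replicate gave 4 to 7 calls. For diet in knockout the count was 1 without both Siah2KO replicate 2 pools, where 1585 of all genes passed, and 0 to 0 with each replicate left out. For the knockout effect on low fat diet it was 4 with array weights, 1 with the muscle covariate and 0 to 4 with each replicate left out, 4 without the pool labelled Siah2KO LFD 1. Relative to the adipocyte list 3 genes were lower for the averaged knockout effect, Cdh5 (-0.31) and Esam (-0.28) with turned signs. With the epididymis covariate the wild type diet changes turned for Pecam1 (-0.15), Tie1 (-0.29), Acvrl1 (-0.049), Tcf15 (-0.21) and Ackr4 (0.16). They turned with the seminal vesicle covariate for Flt1 (-0.21), Acvrl1 (-0.22) and Jam2 (-0.11), and with the epithelium covariate for Pecam1 (-0.13). For knockout on low fat diet they turned for Gata2 with the seminal vesicle covariate (0.033), and relative to the adipocyte list for Lamc1 (-0.051), Ptprb (-0.094) and Vegfd (-0.16). The covariate separates the wild type groups, and the cause was not tested. Of 1714 comparisons of single endothelial genes with their main value, 1659 kept their side of the threshold, 143 of these being uncalled values whose sign turned, 38 lost a call, 11 gained one and 6 turned sign with a call before or after.

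Genes called over the whole array ran, by contrast, from 19 to 5469 (4629 as reported) for diet in wild type, 17 to 1585 (511) for diet in knockout, 4 to 5993 (925) for knockout on low fat, 0 to 33 (10) for knockout on high fat, 4 to 4978 (325) averaged and 1 to 124 (12) for the difference. For diet in wild type 57.6% of calls were higher, 46.2% after cyclic loess and 24.7% relative to the adipocyte list, for knockout on low fat diet 59.8%, 41.2% and 0.684%, and averaged 61.2%, 47.6% and 0.663%. For diet in knockout 81.2% were higher, 91.9% on the adipocyte scale, and for the difference 58.3%, and every call on that scale. That scale moved the median of all genes to -0.28, -0.53 and -0.34 in the first 3 of these, to 0.10 for diet in knockout to -0.13 for knockout on high fat and to 0.38 for the difference. The fit of only the groups compared was not run for the averaged effect and the difference. Array weights stopped before full convergence.

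Replicate numbers did not pair the pools, since deviations of same-numbered pools correlated between -0.81 and 0.16. With a replicate block, 6 of the 10 genes were called for diet in wild type and 0 in the other 5 contrasts.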
